A study of Mus musculus with 10 samples.

Results

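The hepatic response to acetaminophen was followed here from 3 to 8 h after dosing. For each gene the value was the log2 ratio of treated over control liver RNA on the 2 arrays titled with 8 h, minus the same log2 ratio on the 2 arrays titled with 3 h. These 4 arrays were taken by their time point from 10 arrays in all, and the difference was fitted for all 24007 genes that passed the filter on dim probes. A positive difference means that the treated-over-control ratio was higher at 8 h than at 3 h, whether the treated RNA or the control RNA had moved, so the change of each channel is given beside the results.

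The treated mice were 8-week-old female C57BL/6 mice, fasted for 24 h and then given 350 mg/kg acetaminophen in phosphate-buffered saline as 1 intraperitoneal injection. The control mice were of the same age, sex and strain, were fasted alike and, by the treatment protocol, received the saline alone. Each array compared 1 treated mouse, labelled with Cy5, with 1 control mouse of the same time point, labelled with Cy3. At 8 h these were treated mouse 2 with control mouse 2 and treated mouse 3 with control mouse 3, and at 3 h treated mouse 1 with control mouse 2 and treated mouse 3 with control mouse 3. The dyes were never swapped, and a dye effect that was constant over the arrays cancels in the 8 h minus 3 h difference. It does not cancel in the ratio at a single time, so calls above or below control at 3 h or at 8 h may include it. Whole liver was used, so fewer cells of a type and less RNA per cell cannot be told apart in these values.

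Acetaminophen is converted by cytochrome P450 enzymes to a reactive quinone imine, which consumes glutathione and binds to proteins, above all in hepatocytes around the central veins. Damaged and stressed hepatocytes are known to switch on immediate early genes, the oxidant-sensing NRF2 programme, chaperone programmes of the cytosol and the endoplasmic reticulum, and acute phase genes. The fasted liver also carries its own programme of glucose output and fatty acid oxidation, governed by glucagon, glucocorticoids and PPAR alpha, and insulin reverses it and drives fatty acid synthesis.

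The arrays differed in brightness. The array of treated mouse 1 at 3 h was the dimmest of the 4, with 45.0% of probes well above background in Cy5 and 59.8% in Cy3. On the other 3 arrays 63.2 to 69.9% of probes were so in Cy5 and 71.4 to 77.8% in Cy3, and no probe was saturated. The hepatocyte marker list summed to 1050000 to 1180000 intensity units in treated livers at 8 h and 1130000 to 1210000 at 3 h, and to 864000 to 894000 in control livers at 8 h and 780000 to 863000 at 3 h. All 12 of its tested genes were above background on at least 1 array in each channel. The arrays of treated mouse 2 at 8 h and treated mouse 1 at 3 h were scanned on day 1, on different slides, and the 2 arrays of treated mice numbered 3 were scanned on day 2, on 1 slide. Pearson's r was 0.798 between the 2 arrays at 8 h, 0.676 between the 2 arrays at 3 h and 0.531 between the differences of the 2 scan days. These are correlations over genes, and genes do not count as replicates.

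The treated-over-control ratio rose between the times for 128 genes (0.533% of the 24007 tested) and fell for 70 (0.292%), 198 in all (0.825%), by limma with an adjusted p threshold of 0.05. Of these, 96 rose and 41 fell by at least 2-fold. At an unadjusted p under 0.05 in limma, 1698 of the 24007 genes were higher and 2317 lower. Within a single time, 1280 genes were called above control (5.33%) and 1818 below it (7.57%) at 8 h. At 3 h, where 1 array was the dimmest of the 4, 807 were above (3.36%) and 979 below (4.08%). A constant dye effect remains in these single-time calls. The shares over all genes given here are the background for the list counts below. For each of the 198 called genes the 2 arrays at 8 h lay apart from the 2 arrays at 3 h in the called direction. The calls were made on these same arrays, so this separation was nearly fixed in advance and is no added support. Over all genes tested, the arrays at 8 h lay wholly above those at 3 h for 22% and wholly below them for 26.9%.

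The number of calls depended on single arrays and on the normalization. Without treated mouse 1 at 3 h only 3 genes were called higher and 1 lower, and without treated mouse 2 at 8 h 8 and 0, while the count of lower genes was 394 without treated mouse 3 at 3 h and 121 without treated mouse 3 at 8 h. With slide as a block, with median centring in place of loess, or with the log ratios scaled between arrays, limma called 0 genes in the log ratio, and 603 to 1306 each way had an unadjusted p under 0.05. The deposited log ratios gave 29 higher and 8 lower. The 52 called genes that were named by the rule given below all kept their sign in every alternative in which they had a value. The alternatives reuse these arrays, and the genes were picked on them, so a kept sign is weak support. The 52 genes stayed called in 1 of 17 alternatives (Cidec) to 14 of 18 (Bcl3). Tob1, Dnajc10, Sqstm1 and Aen stayed called in 3 of 18, and G6pc in 6 of 18. Called genes chosen after their values were seen, such as Chordc1 and Gnl3, were not followed over the alternatives.

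The treated channel made the larger move for 149 of the 198 called genes and the control channel for 49, and over all 24007 genes the treated channel did for 13925. Among the 128 higher genes the treated channel moved more for 108, and among the 70 lower genes for 41, a share close to that over all genes. Tested alone, the treated channel was higher at 8 h for 50 genes (0.208%) and lower for 2 (0.00833%). In the control channel limma called 0 genes higher (0%) and 0 lower (0%), with 791 and 668 genes at an unadjusted p under 0.05. Thus 31 of the 128 higher genes and 1 of the 70 lower genes also passed the test in the treated channel, and for the other 97 and 69 neither channel passed alone.

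**Figure D1:**
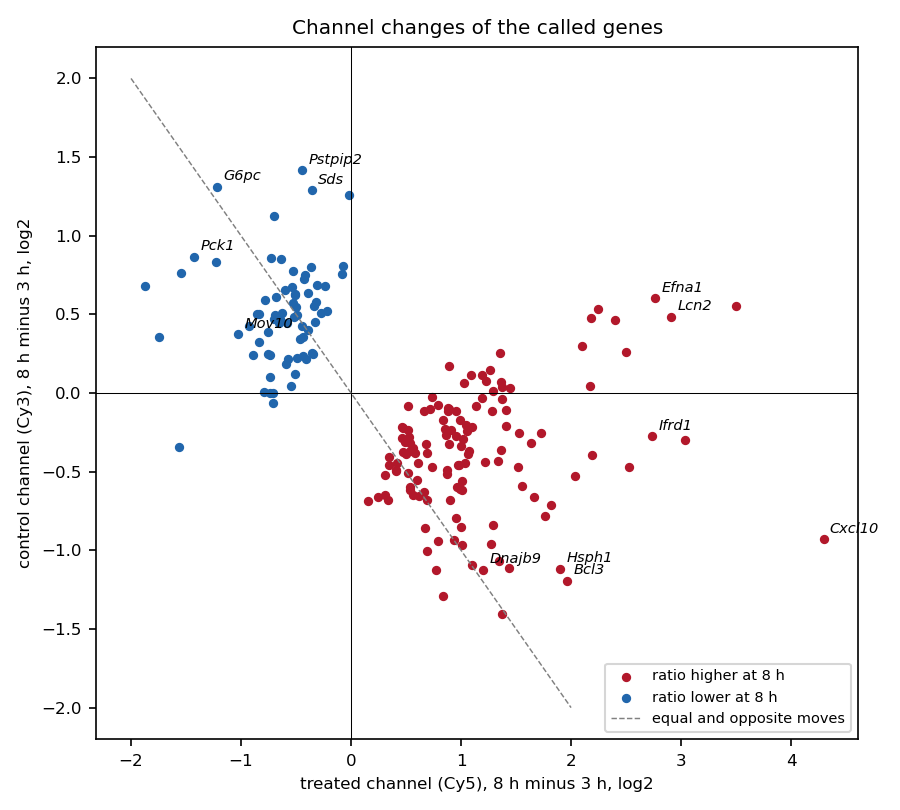
Change of each channel between 3 and 8 h for the 198 called genes, with the treated channel (Cy5) on the x axis and the control channel (Cy3) on the y axis, both as the 8 h minus 3 h difference in log2. Red points are the 128 genes whose ratio was higher at 8 h and blue points the 70 whose ratio was lower, and along the dashed line the channels moved equally in opposite directions. Cxcl10 stands far to the right, and G6pc, Pstpip2 and Sds lie high on the control axis.

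Set by set at 3 h and 8 h, most of the higher genes had not been called at 3 h. Of the 128, 76 were above control at 8 h and not called at 3 h, 27 were above control at 8 h and below it at 3 h, 18 were below control at 3 h and not called at 8 h, and 7 were above control at both times. Of the 70 lower genes, 35 were below control at 8 h and not called at 3 h, and 25 were above control at 3 h and not called at 8 h. The other lower genes were 6 that were below control at 8 h and above it at 3 h, and 4 that were above control at both times.

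A pair of chemokines rose. Cxcl10, an interferon-induced attractant of T cells, had log2 ratios of 5.21 and 4.19 at 8 h, against -0.67 and -0.37 at 3 h. Its ratio was 4.70 ± 0.26 at 8 h and -0.52 ± 0.26 at 3 h as fitted (SE, n = 2 each), a rise of 5.22 ± 0.37 on the log2 scale or 37.4-fold (limma, adjusted p = 0.00485). The treated channel carried it: Cy5 was 4.29 log2 units higher at 8 h than at 3 h, and Cy3 was 0.93 lower (-0.93). Cxcl1, a neutrophil attractant, had log2 ratios of 3.69 and 2.60 at 8 h, against -0.41 and 0.02 at 3 h, a rise of 3.34 ± 0.36 (adjusted p = 0.0182), with Cy5 higher by 3.04. In both genes the 2 arrays at each time stood well apart from those at the other time. Both probes were well above background in Cy5 on 3 of the 4 arrays, so the sizes are uncertain, and over the alternatives they ran from 3.09 to 6.76 for Cxcl10 and from 2.70 to 5.34 for Cxcl1. They were the only 2 of 34 tested cytokine and chemokine genes to pass, and the median difference of that list was 0.05, beside -0.01 for all genes. Only 10 of the 34 were well above background in both channels on all 4 arrays, so changes of the dimmer members could be missed. With a normexp offset of 0 the list median was 0.18.

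The 250 bases before the RefSeq start of these chemokine genes each hold 1 match to a kappaB-like word, GGANNTTCC or its reverse complement GGAANNTCC, the form bound by NF-kB. They are shown because the other inflammatory genes that rose have no such word in that window. Capitals mark the word, 5′ to 3′ on the gene's strand, with 10 bases on each side, and coordinates are those of GRCm38.p6.
Cxcl1, chr5:90891165-90891193, plus strand: ctgtactccgGGAATTTCCctggcccgga
Cxcl10, chr5:92349029-92349057, minus strand: gaggggagagGGAAATTCCaagttcatgg
The word begins at position -70 in Cxcl1 and -158 in Cxcl10, where -1 is the base before the start. Of the 8 inflammatory genes whose ratio rose, 2 hold it, and 3.59% of all 32851 RefSeq windows of this length do. A match is a description of the letters only.

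Some acute phase and feedback genes also rose. The acute phase list had 4 of 32 tested genes higher (12.5%) and 0 lower, with a median difference of 0.44. The NF-kB and STAT3 feedback list had 2 of 23 higher (8.7%) and 0 lower, with a median of 0.08. Over all genes 0.533% were higher. Bcl3, a nuclear partner of NF-kB, changed sides: its log2 ratios were 1.14 and 1.16 at 8 h, against -2.09 and -1.93 at 3 h. This was a rise of 3.16 ± 0.16 or 8.92-fold (adjusted p = 0.00178). Both channels moved, with Cy5 higher by 1.96 (adjusted p = 0.0395) and Cy3 lower (-1.19). Socs3, which restrains STAT3 signalling, had log2 ratios of 0.56 and 0.79 at 8 h, against -0.46 and -0.78 at 3 h, and Cy5 was higher by 1.36 (adjusted p = 0.0291), against 0.07 in Cy3.

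Lcn2, an iron-siderophore carrier made by hepatocytes and neutrophils, had log2 ratios of 2.50 and 2.06 at 8 h, against 0.02 and -0.31 at 3 h, a rise of 2.42 ± 0.35 (adjusted p = 0.0337). Saa1, the serum amyloid A apolipoprotein, had ratios of 2.16 and 1.52 at 8 h, against 0.31 and -0.03 at 3 h. In both genes the treated channel made the larger move, 2.91 log2 units in Lcn2 and 2.18 in Saa1. Saa1 and Saa2 are near-identical genes and their probes may share RNA. Saa2 differed by 2.25 ± 0.44 without passing (adjusted p = 0.0715). Apcs, serum amyloid P, rose by 1.02 ± 0.12, and there the control channel made the larger move (-0.68, against 0.34 in Cy5). Lrg1, a secreted acute phase glycoprotein, rose by 1.56 ± 0.23 with Cy5 higher by 1.01 and Cy3 lower (-0.56).

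Markers of other cell types had few calls. Lcn2 was also the only 1 of 12 tested neutrophil markers to pass. The summed neutrophil list was 20200 to 31200 units in treated livers at 8 h and 16900 to 22700 at 3 h, and 10900 to 21400 in control livers at 8 h and 11600 to 16900 at 3 h. This sum includes Lcn2 itself, whose Cy5 levels were 13.37 and 12.9 log2 units at 8 h, against 10.31 and 10.13 at 3 h. The sum is thus no separate measure of the other neutrophil markers. Of the list's 12 genes 4 were dim in Cy5 on all 4 arrays and 4 in Cy3. The list's median difference was 0.06, and S100a8 and S100a9, abundant granule genes of neutrophils, differed by 0.33 ± 0.37 and 0.43 ± 0.70. The part of neutrophils in the rise of Lcn2 was not tested. No gene passed among 14 Kupffer cell, 11 recruited monocyte and macrophage, 13 sinusoidal endothelial, 14 stellate cell and matrix, 9 cholangiocyte, 15 lymphocyte and 6 erythroid markers, with median differences from -0.13 to 0.25 and at most 1 gene each way at an unadjusted p under 0.05 in any of these lists. The erythroid sum in control livers ranged from 17500 to 37000 at 8 h and from 13700 to 78500 at 3 h.

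**Figure D2:**
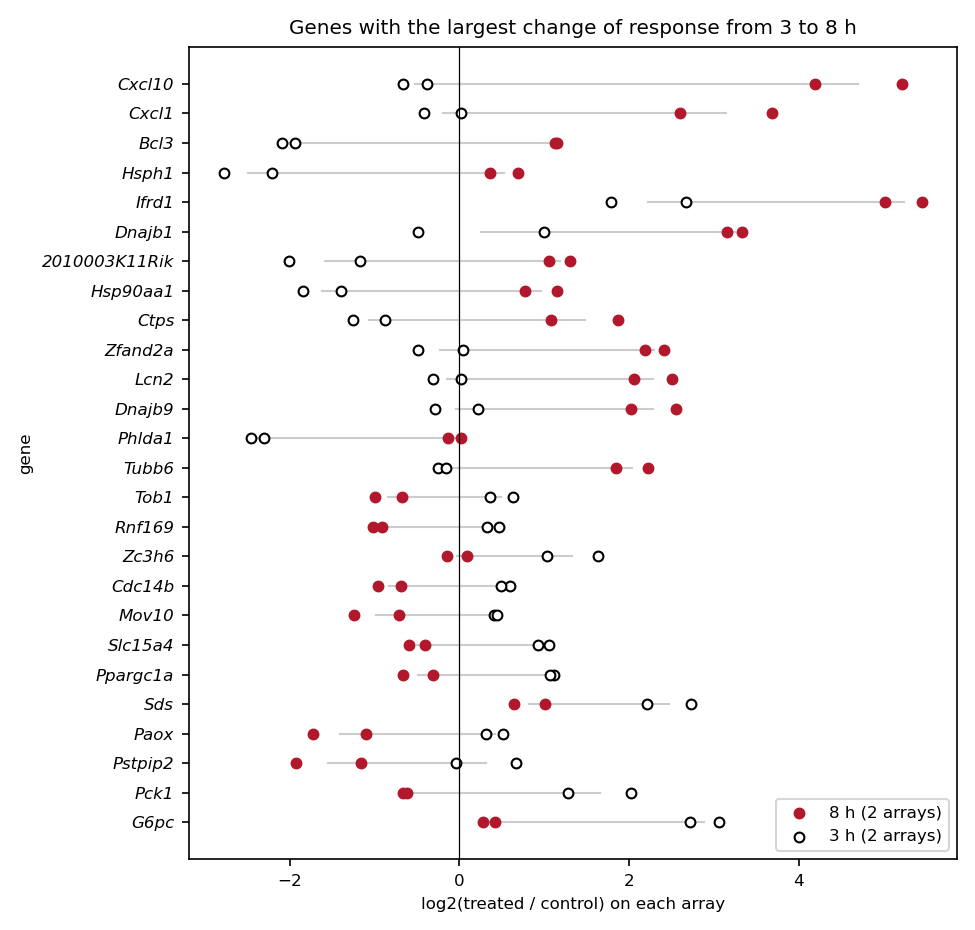
Log2 ratio of treated over control on each of the 4 arrays for Cxcl10, Cxcl1 and the 12 genes with the largest rise and the 12 with the largest fall that were above background throughout. Filled red points are the 2 arrays at 8 h, open points the 2 arrays at 3 h, and grey lines join the fitted means. The red and open points of a gene do not overlap, and many genes cross 0, among them Bcl3, Hsph1, Hsp90aa1, Ctps, Pck1, Paox and Mov10.

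The next list is that of cytosolic heat shock chaperones. These proteins fold or hold other proteins and are the classical targets of heat shock factor 1. Of 30 tested members 7 rose (23.3%, against 0.533% of all genes) and 0 fell. The median difference was 0.57, on scan day 1 0.78 and on scan day 2 0.37. At 8 h 10 members were above control and 5 below, whereas at 3 h 1 was above and 11 were below. Over all genes 5.33% were above and 7.57% below at 8 h, and 3.36% and 4.08% at 3 h. Hsph1, the Hsp110 exchange factor, had log2 ratios of 0.69 and 0.36 at 8 h, against -2.78 and -2.20 at 3 h, a rise of 3.02 ± 0.23 or 8.09-fold (adjusted p = 0.00485). Its Cy5 channel was higher by 1.90 (adjusted p = 0.00331) and its Cy3 channel lower (-1.12). Its control levels were 9.90 and 10.38 at 8 h, against 11.53 and 10.99 at 3 h.

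Dnajb1, the Hsp40 partner of Hsp70, had log2 ratios of 3.16 and 3.34 at 8 h, against -0.49 and 0.99 at 3 h, and its rise of 3.00 ± 0.43 lay mainly in Cy5 (2.52, adjusted p = 0.0395). Hsp90aa1, the inducible Hsp90, had ratios of 1.15 and 0.77 at 8 h, against -1.84 and -1.40 at 3 h, again mainly in Cy5 (2.19, against -0.40 in Cy3). Dnaja1 rose by 2.23 ± 0.25 with both channels moving (1.27 in Cy5 and -0.96 in Cy3). Chordc1, an Hsp90 co-chaperone, was still below control on both arrays at 8 h (-0.13 and -0.57), against -1.73 and -1.55 at 3 h. Its channels moved about equally (0.66 in Cy5 and -0.63 in Cy3). Hspa4 rose by 1.43 ± 0.17, with 0.97 in Cy5 and -0.46 in Cy3, and Dnajb4 by 0.80 ± 0.13, with 0.49 in Cy5 and -0.31 in Cy3. Hspa8, the constitutive Hsc70, differed by 2.53 ± 0.46 and did not pass (adjusted p = 0.0587). Zfand2a, a heat-inducible regulator of the proteasome that is not on the list, rose by 2.52 ± 0.42, with ratios of 2.42 and 2.19 at 8 h, against -0.49 and 0.04 at 3 h, mainly in Cy5 (1.81, against -0.71 in Cy3).

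Heat shock factor binds inverted repeats of nGAAn, and a pair of such units can be read as GAANNTTC or TTCNNGAA. Of the 6 risen chaperone genes matched to RefSeq windows, 3 hold either word within 250 bases before a RefSeq start, and 12.8% of all windows hold 1. Several of these genes have more than 1 annotated start, and a gene was counted when any of its windows matched. The 3 of 6 is thus a count by gene and the 12.8% a share of single windows, so they are not directly comparable. The 3 matches are shown with the word in capitals, 5′ to 3′ on the gene's strand, in GRCm38.p6 coordinates.
Hsph1, chr5:149636352-149636379, minus strand: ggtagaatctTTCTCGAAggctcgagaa
Dnaja1, chr4:40722334-40722361, plus strand: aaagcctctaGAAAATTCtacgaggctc
Dnajb4, chr3:152193846-152193869, minus strand: tcgttcgctgTTCTAGAAagtaca
The word begins at position -54 or -33 in Hsph1, by the start chosen, at -124 in Dnaja1 and at -14 in Dnajb4. Chordc1, Dnajb1 and Hspa4 held neither word in their windows, which says nothing about binding of the factor. Hsph1, Dnaja1 and Dnajb4 rose by 3.02, 2.23 and 0.80, and Chordc1, Dnajb1 and Hspa4 by 1.29, 3.00 and 1.43.

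Chaperones of the endoplasmic reticulum were split. Of 28 tested members 4 rose and 1 fell, with a median difference of 0.21. At 8 h 9 of them were below control and 4 above, and at 3 h 12 were below and 1 above. The median difference was 0.41 on scan day 1 and 0.06 on scan day 2. Between the lowest and the highest setting it ran from -0.05 to 0.62, so its sign was not stable. Dnajb9, a co-chaperone of the endoplasmic reticulum, had log2 ratios of 2.56 and 2.02 at 8 h, against -0.29 and 0.22 at 3 h. Hspa5, the luminal Hsp70 known as BiP, had ratios of 1.58 and 1.22 at 8 h, against -0.94 and -0.55 at 3 h. Both genes moved in both channels, Dnajb9 by 1.20 in Cy5 and -1.12 in Cy3, and Hspa5 by 1.55 in Cy5 and -0.59 in Cy3. Xbp1, the transcription factor of the unfolded protein response, rose by 1.63 ± 0.17, with ratios of 0.45 and 0.59 at 8 h, against -1.21 and -1.01 at 3 h, and with 1.01 in Cy5 and -0.62 in Cy3. Ero1b, a disulfide oxidase, rose by 0.75 ± 0.12, slightly more in Cy3 (-0.41) than in Cy5 (0.35). Dnajc10, a disulfide reductase, fell by 0.80 ± 0.13, with ratios of -0.99 and -0.84 at 8 h, against -0.10 and -0.15 at 3 h, and its channels moved about equally (-0.39 in Cy5 and 0.40 in Cy3). The probe reads the whole gene, so splicing of Xbp1 was not measured.

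The list with the most calls was ribosome biogenesis, the nucleolar factors that transcribe, cut and assemble ribosomal RNA. Of 47 tested members 11 rose (23.4%, against 0.533% of all genes) and 0 fell, the median difference was 0.51, and 44 differences were positive. Both channels moved. Treated levels at 8 h lay wholly above those at 3 h for 31 of the 47 genes, against 21.6% of all genes. Control levels at 8 h lay wholly below those at 3 h for 34 of the 47, against 16.6% of all genes. The median change was 0.27 in Cy5 and -0.33 in Cy3, and the median difference was 0.59 on scan day 1 and 0.47 on scan day 2. At 3 h 11 members were below control and 0 above, and at 8 h 15 were above and 1 below.

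Heatr1, needed for ribosomal RNA transcription and processing, had log2 ratios of 0.89 and 0.76 at 8 h, against -0.64 and -0.67 at 3 h, a rise of 1.48 ± 0.13 (adjusted p = 0.0115). It was the only 1 of the 47 genes called in the treated channel alone (1.03, adjusted p = 0.0291). Nip7, a factor of pre-rRNA processing, had ratios of 1.19 and 0.88 at 8 h, against -0.47 and -0.57 at 3 h, with Cy5 higher by 0.96 and Cy3 lower (-0.59). Polr1b, the second-largest subunit of RNA polymerase I, had ratios of 0.35 and 0.34 at 8 h, against -0.71 and -0.66 at 3 h, with equal shares of the change in the channels (0.52 in Cy5 and -0.51 in Cy3). The largest called rise of the list was in Gnl3, nucleostemin, at 1.73 ± 0.26, with Cy3 (-0.94) moving more than Cy5 (0.79). Nop2, an rRNA methyltransferase, only came up to control, with 0.22 and 0.01 at 8 h, against -1.43 and -1.08 at 3 h, and its channels moved equally (0.69 in Cy5 and -0.68 in Cy3).

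**Figure D3:**
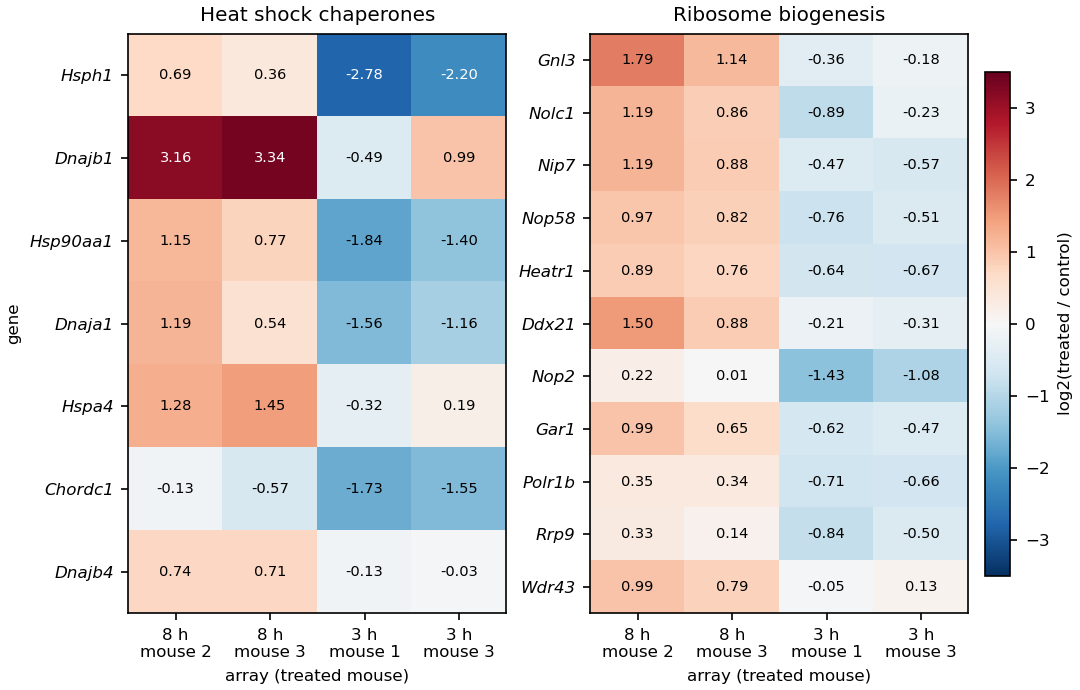
Log2 ratio of treated over control (colour and printed number) on each of the 4 arrays, for the 7 heat shock chaperones and the 11 ribosome biogenesis genes that passed the test, each panel sorted by the size of the rise. The 2 left columns of each panel are the arrays at 8 h and the 2 right columns those at 3 h. Most genes are red at 8 h and blue at 3 h, whereas Chordc1 is below 0 on all 4 arrays and Dnajb1 is at 3.16 and 3.34 at 8 h, against -0.49 and 0.99 at 3 h.

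Lists of genes that make and degrade proteins had few calls. Among 29 translation initiation factors 1 rose, Eif1a, by 1.75 ± 0.24, with ratios of 1.10 and 0.90 at 8 h, against -0.68 and -0.82 at 3 h, and with 0.95 in Cy5 and -0.79 in Cy3. The median difference of the list was 0.44. Of 31 proteasome subunits 0 passed in limma, with 15 higher and 1 lower at an unadjusted p under 0.05 and a median of 0.48. Psmc4, an ATPase of the 19S cap, had the smallest p (0.73 ± 0.13, adjusted p = 0.0541). The 8 subunits of the TRiC chaperonin all had positive differences with a median of 0.45, and 0 passed (3 higher and 0 lower unadjusted). The 42 cytosolic ribosomal proteins had a median of 0.13 and 0 calls, with 3 higher and 1 lower at an unadjusted p under 0.05. In each of the lists of initiation factors, proteasome and TRiC the Cy5 median was above 0 (0.29, 0.27 and 0.30) and the Cy3 median below it (-0.17, -0.22 and -0.21).

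Immediate early genes encode fast-acting transcription factors and signalling proteins. Of 44 tested members 6 rose (13.6%, against 0.533% of all genes) and 0 fell. The median difference was 0.45, with 0.74 on scan day 1 and 0.06 on scan day 2. Treated levels at 8 h lay wholly above those at 3 h for 28 of the 44, against 21.6% of all genes. The Cy5 median was 0.68 and the Cy3 median 0.17. Already 21 members were above control at 3 h, and 32 were at 8 h. Ccn1, a matricellular growth factor, had log2 ratios of 2.40 and 2.70 at 8 h, against 0.01 and 0.83 at 3 h, with Cy5 higher by 2.17 and Cy3 by 0.04. Fosb rose by 1.07 ± 0.12, Csrnp1 by 1.81 ± 0.26 and Fosl2 by 1.22 ± 0.18, and their Cy5 levels were higher by 0.95, 2.10 and 1.14. Phlda1, a pleckstrin-like regulator of cell death, was close to control at 8 h: its ratios were -0.13 and 0.02 at 8 h, against -2.30 and -2.46 at 3 h, and Cy5 made the larger move (1.66, against -0.66 in Cy3). Myc, a driver of growth and of ribosome biogenesis genes, had ratios of 1.97 and 2.12 at 8 h, against -0.10 and 0.63 at 3 h, and Cy5 was higher by 1.52.

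Few members of other stress programmes passed. Of 42 NRF2 targets 2 rose and 0 fell, with a median of 0.25. Txnrd1, thioredoxin reductase, had log2 ratios of 2.00 and 1.98 at 8 h, against -0.13 and 0.19 at 3 h, a rise of 1.96 ± 0.20 with Cy5 higher by 1.64 (adjusted p = 0.0300). Sqstm1, the autophagy receptor p62, rose by 1.39 ± 0.23 (1.28 in Cy5), and Ubqln1, a ubiquitin shuttle, by 1.07 ± 0.14 (1.19 in Cy5), so that 2 of 24 autophagy genes rose. Gclc, the catalytic subunit of glutathione synthesis, had ratios of 3.44 and 3.18 at 8 h, against 0.89 and 1.26 at 3 h, and its difference of 2.23 ± 0.38 did not pass (adjusted p = 0.0527). The 29 integrated stress response genes had a median of 0.43 and 0 calls, with 9 higher and 1 lower at an unadjusted p under 0.05, and Eif4ebp1, a repressor of translation, had the smallest p (0.93 ± 0.24, adjusted p = 0.123). Of 22 p53 targets 1 rose, the nuclease Aen (0.68 ± 0.10, with 0.46 in Cy5 and -0.21 in Cy3).

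Among genes that passed in the treated channel alone and were above background on all 4 arrays, Cy5 rose most for Maff, Efna1, Ifrd1, Tnfrsf12a, Gm10639 and Dnajb1. Ifrd1, a transcriptional co-regulator, had log2 ratios of 5.46 and 5.02 at 8 h, against 1.79 and 2.67 at 3 h, and its Cy5 level was higher by 2.74. Efna1, an ephrin ligand, had ratios of 2.34 and 1.99 at 8 h, against 0.08 and -0.08 at 3 h, with Cy5 higher by 2.77. In Maff, a small Maf factor, Cy5 was higher by 3.00 and Cy3 by 1.00, so that the ratio differed by 1.99 ± 0.51 and did not pass. Tnfrsf12a, the receptor of TWEAK, and Gm10639 likewise passed in Cy5 (2.66 and 2.55) and not in the ratio. Tubb6, a tubulin, rose by 2.24 ± 0.35 in the ratio with Cy5 higher by 2.50. Ctps, the enzyme that makes CTP, was above control at 8 h and below it at 3 h, with ratios of 1.88 and 1.08 at 8 h, against -0.88 and -1.25 at 3 h, mainly in Cy5 (1.76, against -0.78 in Cy3). So did 2010003K11Rik, an unnamed gene, with 1.30 and 1.06 at 8 h, against -2.01 and -1.17 at 3 h, and its channels moved equally (1.37 in Cy5 and -1.40 in Cy3).

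Among named genes above background throughout, the 2 largest falls were in gluconeogenesis, the making of glucose that fasting sustains and insulin represses. Of 19 tested genes of this list 4 fell (21.1%, against 0.292% of all genes) and 0 rose. The median difference was -0.57, with -0.44 on scan day 1 and -0.90 on scan day 2. At 3 h 11 of the 19 were above control and 0 below, and at 8 h 7 were above and 1 below. G6pc, glucose-6-phosphatase, the last step of glucose release, had log2 ratios of 0.28 and 0.43 at 8 h, against 2.72 and 3.06 at 3 h. It fell by 2.53 ± 0.38 (adjusted p = 0.0364). Pck1, the cytosolic phosphoenolpyruvate carboxykinase, had ratios of -0.61 and -0.67 at 8 h, against 1.29 and 2.02 at 3 h. It fell by 2.29 ± 0.22 (adjusted p = 0.0133).

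In these genes the channels converged. The G6pc level in treated livers was 12.49 and 12.19 log2 units at 8 h, against 13.58 and 13.54 at 3 h, and in control livers 12.21 and 11.76 at 8 h, against 10.86 and 10.48 at 3 h. Pck1 was 14.48 and 14.22 in treated livers at 8 h, against 15.74 and 15.81 at 3 h, and this fall of 1.43 passed in the treated channel alone (adjusted p = 0.0291). Its control level was 15.09 and 14.88 at 8 h, against 14.45 and 13.79 at 3 h. Sds, serine dehydratase, which feeds amino acid carbon to glucose, moved more in the control channel (1.29, against -0.36 in Cy5), and its ratios were 1.01 and 0.64 at 8 h, against 2.22 and 2.74 at 3 h. Ppargc1a, the coactivator of the fasting programme, fell by 1.58 ± 0.25, with -0.72 in Cy5 and 0.86 in Cy3. Over the list, treated levels were wholly lower at 8 h for 12 of the 19 genes, against 19.2% of all genes, and control levels wholly higher for 9, against 22.1% of all genes. Igfbp1, an insulin-repressed secreted protein on the same list, stayed high, with ratios of 5.83 and 4.59 at 8 h, against 6.28 and 6.02 at 3 h.

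**Figure D4:**
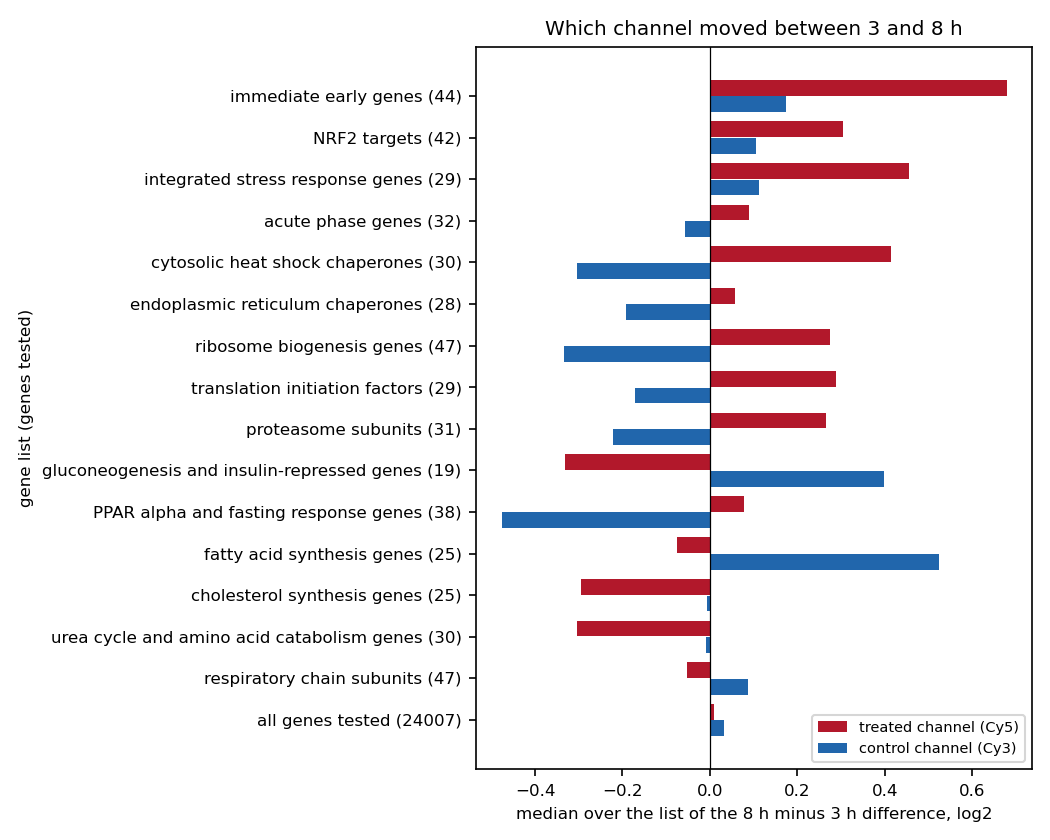
Median 8 h minus 3 h difference of the treated channel (red, Cy5) and of the control channel (blue, Cy3), in log2, over the tested genes of 15 lists and over all 24007 genes. The immediate early list has its longest bar in red. The ribosome biogenesis and heat shock lists have red and blue bars in opposite directions, and the PPAR alpha and fatty acid synthesis lists have long blue and short red bars.

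In the lists of fatty acid metabolism few genes passed, and the list medians were larger in the control channel. PPAR alpha and fasting response genes carry out fatty acid oxidation, ketone production and lipid storage. Of 38 tested 1 rose and 0 fell, while the median difference was 0.63 and 34 of the 38 differences were positive. The Cy3 median was -0.48 and the Cy5 median 0.08, and the control channel made the larger move for 29 of the 38. Control levels at 8 h were wholly below those at 3 h for 20 genes, against 16.6% of all genes. The median difference was 0.97 on scan day 1 and 0.27 on scan day 2. Cidec, a lipid droplet protein, was the gene that passed and is an exception, since its Cy5 level was higher by 3.50 and its Cy3 level by 0.55. Its ratios were 3.92 and 3.22 at 8 h, against -0.13 and 1.37 at 3 h, it was above background in Cy5 on 3 of the 4 arrays, and its adjusted p was 0.0499. It was called in only 1 of 17 alternatives.

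Fatty acid synthesis genes are those that insulin and feeding raise. Of 25 tested 0 passed in limma (1 higher and 11 lower at an unadjusted p under 0.05), and the median difference was -0.57. The Cy3 median was 0.52 and the Cy5 median -0.08, with control levels at 8 h wholly above those at 3 h for 16 of the 25 genes, against 22.1% of all genes. Lpin1, a phosphatidate phosphatase and coactivator with the smallest p, had log2 ratios of 0.67 and 1.12 at 8 h, against 2.60 and 3.05 at 3 h (adjusted p = 0.0540). Its control level was 10.05 and 9.06 at 8 h, against 8.17 and 7.98 at 3 h.

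The next genes were chosen after their values were seen, as plain cases of the pattern. Fasn, fatty acid synthase, had control levels of 10.60 and 10.14 at 8 h, against 8.69 and 9.02 at 3 h, while its treated levels were 8.95 and 8.99 at 8 h, against 9.06 and 8.93 at 3 h. Acly, ATP citrate lyase, had control levels of 12.86 and 13.72 at 8 h, against 11.29 and 12.08 at 3 h, and treated levels within 12.09 to 12.18 at 8 h and 12.13 to 12.23 at 3 h. In the opposite direction Cyp4a10, a PPAR alpha target, had control levels of 13.79 and 13.89 at 8 h, against 15.36 and 15.23 at 3 h. Ech1, an enzyme of fatty acid oxidation, had control levels of 11.38 and 11.16 at 8 h, against 12.59 and 12.14 at 3 h, and treated levels of 11.78 and 11.68 at 8 h, against 11.78 and 11.56 at 3 h. In these genes the control arrays of the 2 times do not overlap, but they were picked for this pattern, so the separation is no added support. Over all genes tested, control levels at 8 h lay wholly above those at 3 h for 22.1% and wholly below them for 16.6%. None of these picked genes passed in either channel or in the ratio.

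**Figure D5:**
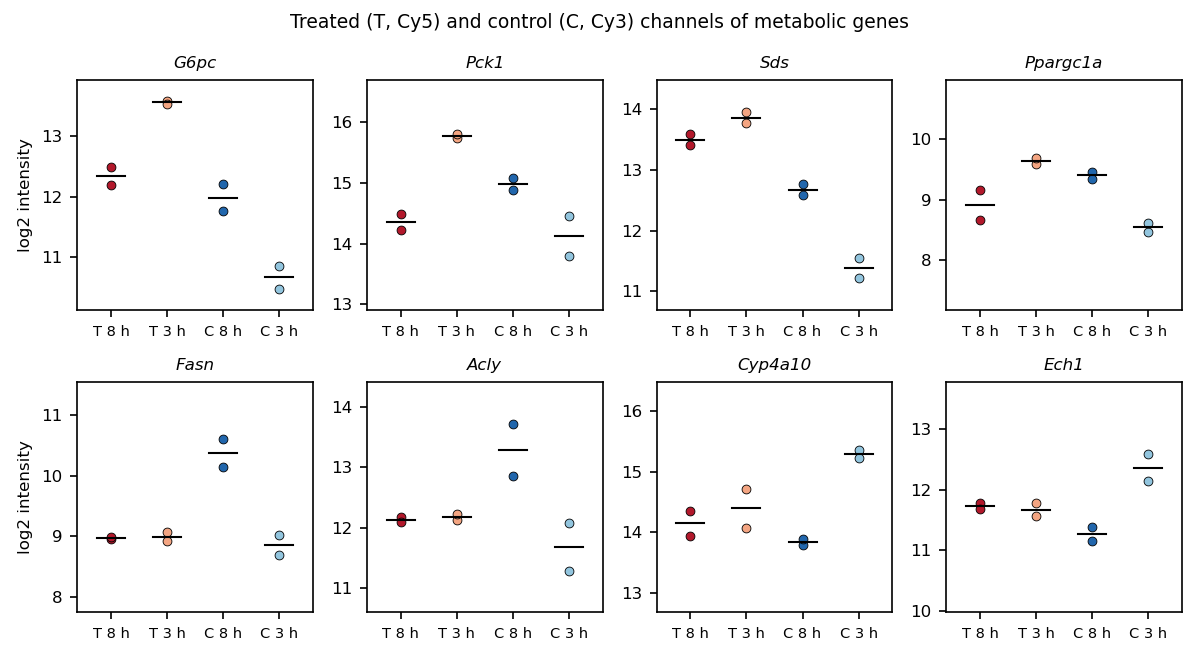
Log2 intensity in the treated (T, red, Cy5) and control (C, blue, Cy3) channels on each of the 4 arrays, with 8 h in dark and 3 h in light colour and a bar at the mean of 2, for 4 genes of gluconeogenesis (top) and 4 of fatty acid synthesis or oxidation (bottom). All panels span a range of equal width. Treated G6pc, Pck1, Sds and Ppargc1a are lower and their controls higher at 8 h, whereas in the lower row the controls differ between the times and the treated livers less so.

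Other metabolic lists had at most 1 call each. Of 30 urea cycle and amino acid genes only Sds passed in limma, with 2 higher and 8 lower at an unadjusted p under 0.05. The median difference was -0.28, with a Cy5 median of -0.30 and a Cy3 median of -0.01. Treated levels at 8 h lay wholly below those at 3 h for 17 of the 30, against 19.2% of all genes. The 25 cholesterol synthesis genes had a median of -0.30 and 0 calls (0 higher and 6 lower unadjusted), with -0.72 on scan day 1 and 0.08 on scan day 2. Of 37 drug metabolism genes Papss2, which makes the sulfate donor, fell by 1.26 ± 0.17, slightly more in Cy3 (0.65) than in Cy5 (-0.60), and the median was 0.00. The 47 respiratory chain subunits (median -0.09), 30 bile acid genes (-0.03), 29 glycolysis and hypoxia genes (0.10), 22 circadian clock genes (0.08) and 37 interferon response genes (-0.06) had 0 calls each in limma, with 0 to 7 higher and 1 to 8 lower at an unadjusted p under 0.05. The same held for 29 splicing regulators (median 0.19), 20 tRNA synthetases (0.08), 18 Bcl2 family genes (0.03), 18 growth hormone and IGF axis genes (-0.01), 8 metallothionein and zinc genes (-0.03) and 21 G2 and mitosis genes (-0.08), with 0 calls and up to 7 genes each way unadjusted. Myc was the only call among 20 G1 regulators (median -0.11).

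Other falls came from both channels. Paox, a polyamine oxidase, had log2 ratios of -1.72 and -1.10 at 8 h, against 0.52 and 0.32 at 3 h, with the larger move in Cy3 (1.12, against -0.70 in Cy5). Pstpip2, a cytoskeletal adaptor, also moved more in Cy3 (1.42, against -0.44). Mov10, an RNA helicase, fell by 1.40 ± 0.20, mainly in Cy5 (-1.02, against 0.37). Slc15a4, Cdc14b, Zc3h6, Rnf169 and Tob1 fell by 1.49, 1.37, 1.36, 1.35 and 1.34, and in each of them except Slc15a4 Cy5 made the larger move. Eya2 and Sult6b1 were not well above background in Cy5 on either array at 8 h and were on both at 3 h. With the dim level set at its bound, their treated level was lower by 1.73-fold and 1.64-fold at 8 h than at 3 h. These figures leave out the spread between arrays. The ratio passed in limma (adjusted p = 0.0252 and 0.0374), and the treated channel alone did not (adjusted p = 0.0748 and 0.234). Sult6b1 was also not well above background in Cy3 on any of the 4 arrays, so the size of its ratio is uncertain. Over the alternatives the difference ran from -3.04 to -0.46 for Eya2 and from -4.35 to -0.41 for Sult6b1.

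At both times 894 genes were called in the same direction, of which 11 also passed in the difference. Another 33 were called in opposite directions, and all of them passed. Calls on opposite sides of 0 make a call in the difference nearly certain. The 8 largest of the 33 were Bcl3, 2010003K11Rik, Ctps, Pck1, Dnaja1, Trmt61a, Exosc6 and Eif1a. Trmt61a, a tRNA methyltransferase subunit, had a fitted ratio of 0.96 ± 0.18 at 8 h, against -0.89 ± 0.18 at 3 h (SE, n = 2 each). Its Cy5 level was higher by 0.997 and passed alone (limma, adjusted p = 0.0402), and its Cy3 level was lower (-0.85). Exosc6, a subunit of the RNA exosome, had 0.93 and 0.87 at 8 h, against -1.10 and -0.65 at 3 h, mainly in Cy5 (1.34, against -0.43 in Cy3).

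Egr1, Igfbp1, Mt2, Jun and Gdf15 had the largest responses among genes called in the same direction at both times and not called in the difference. Egr1, an immediate early factor, had log2 ratios of 6.33 and 5.55 at 8 h, against 5.09 and 5.83 at 3 h, a difference of 0.49 with a 95% interval from -0.37 to 1.34. Jun had 5.20 and 4.98 at 8 h, against 4.28 and 4.71 at 3 h, and its interval ran from 0.04 to 1.15, which leaves out 0, although the adjusted p was 0.272. The interval ran from -1.99 to 0.74 for Mt2, a metallothionein, and from -1.12 to 0.35 for Gdf15, a stress-induced hormone. For Igfbp1 it ran from -2.62 to 0.75. These intervals leave room for changes of over 1 log2 unit, so they do not show that the responses stayed the same.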

How the data were processed

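Liver RNA was measured on 10 two-colour Agilent arrays, 2 at each of 5 times, and per the file headers the authors extracted spot intensity values with Agilent Feature Extraction 10.7.3.1 on a mm9 design. The deposited log10 ratios of the scanner files and the authors' value table, a score whose scale is not stated, were alternatives. That table equals 1.44 times the log10 ratio on every array (r = 1) with a median of 0, so its direction is Cy5 over Cy3.

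Mean signals were background-corrected (normexp, offset 50) and loess-normalized within arrays in limma 3.58.1 (R 4.3.3), leaving out 1377 control spots and 2718 outlier spots. Of 39429 probes, 29623 were kept, being well above background in 1 channel on both arrays of a time point. The brightest kept probe stood for a gene, and probes were named by accession or symbol through RefSeq, with 17625 of 24007 genes so named. All 10 arrays shared 1 fit, without a replicate block, with 5 residual degrees of freedom, and Benjamini-Hochberg adjustment ran over all genes at 0.05. Single channels were compared after Aquantile scaling. The fit was tested on simulated data. The labels pair no mice across times, although the arrays of the mice numbered 3 share a slide and scan day: the deviations of the mice numbered 3 at 8 h and at 3 h correlated at -0.07. Mice are known here only by their numbers, so p-values measure the spread between these arrays, whose small number limits the precision.

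Genes named are, by rule, the 12 largest calls each way above background throughout, up to 5 each way with a dim channel, up to 3 called members each way of every list or else the member with the smallest p, the 6 largest in each channel alone, 8 of opposite direction and 5 steady ones. Others were chosen after their values were seen. The lists and the time points compared were chosen with earlier results of these data known. Bounds for dim probes set the dim level at the higher of its own value and the lowest signal well above background on that array.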

Additional observations from a re-analysis of the deposited data

Results flagged for a closer look

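The treated-over-control contrast differed between 8 h and 3 h by the test of the difference itself, limma over all genes, for the genes counted in the report. Those called in opposite directions at the 2 times stand out most, and there were 33 of them. The 8 largest, as log2 differences of 8 h minus 3 h, were Bcl3 (3.16), 2010003K11Rik (2.77), Ctps (2.54), Pck1 (-2.29), Dnaja1 (2.23), Trmt61a (1.85), Exosc6 (1.77) and Eif1a (1.75). Pck1 was the only 1 of the 8 above control at 3 h and below it at 8 h. Groups of 2 arrays were too small for a check of single arrays that stand apart.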

How the results depend on the processing

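Counts of called genes are given as higher and lower, with main counts of 128 and 70 in the log ratio, 50 and 2 in the treated channel and 0 and 0 in the control channel. The log ratio gave 77 and 34 with normexp offset 0, 270 and 128 with no background correction, 29 and 8 with the Feature Extraction log ratio and also with the authors' table (the same values rescaled), 193 and 109 with the stricter filter, 83 and 32 with scan day as a block and 1 and 0 with the 4 arrays alone. It gave 0 and 0 with median centring (limma, 881 and 603 at an unadjusted p under 0.05), with scaled log ratios (1122 and 1010 unadjusted) and with slide as a block (1181 and 1306 unadjusted). The treated channel gave 18 and 0 with offset 0, 4 and 0 with median centring, 21 and 1 with no filter, 15 and 0 with the 4 arrays alone, and 0 and 0 with slide as a block (810 and 816 unadjusted). Its lower count was 0 with no background correction or with quantile scaling, 1 with the stricter filter, 5 with an intensity trend and 4 with scan day as a block. The control channel had 1 lower gene with median centring and 1 higher with scan day as a block. With the replicate block, the number of the treated mouse, the counts were 2 and 0 in the log ratio, 2 and 1 in the treated and 1 and 1 in the control channel. That fit rests on the mice numbered 3, whose arrays also share a slide and a scan day. Leaving out each array in turn gave 3 to 156 higher and 0 to 394 lower genes in the log ratio, 1 to 68 and 0 to 58 in the treated channel, and 0 to 0 and 0 to 1 in the control channel, where an arm of 1 array was taken to vary like the others. With the log ratio at the main setting, the unadjusted count was 1698 higher and 2317 lower. The cause of these shifts was not tested. No called gene named by rule changed sign, which the reuse of the same arrays makes likely, and the other called genes in the text were not followed. Between the lowest and the highest setting, the list median ran from 0.30 to 0.95 for heat shock chaperones, 0.36 to 0.84 for ribosome biogenesis, -0.90 to -0.26 for gluconeogenesis, 0.27 to 1.02 for the PPAR alpha list and -0.70 to -0.19 for fatty acid synthesis. Within a scan day counts had no test. Signal over background limited the array of treated mouse 1 at 3 h most, in Cy5.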
